A study of Homo sapiens with 2 samples.

Results

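The regions described here are the IGF2BP3 peaks that overlapped an exon of a ZNF gene, meaning a protein-coding gene of GENCODE 44 on hg38 whose symbol is ZNF followed by a number. There were 227 such peaks among 21142 in replicate 1 (1.07%) and 245 among 20799 in replicate 2 (1.18%). They lay on 137 of the 515 ZNF genes in replicate 1 and on 149 in replicate 2. The choice used only peak positions and gene names, not the strength of any peak.

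The peaks come from LACE-seq of OE-19, an established cell line of adenocarcinoma of the esophagogastric junction. LACE-seq maps sites of an RNA-binding protein by UV crosslinking, immunoprecipitation with an antibody, here against IGF2BP3, MNase trimming and reverse transcription. Both samples are replicates of a single group, and no control library was analysed here. IGF2BP3 is an oncofetal RNA-binding protein that is known to read m6A and to bind and stabilize mRNAs. All 6 epithelial marker genes (KRT8, KRT18, KRT19, EPCAM, CDH1 and ERBB2) had an exonic peak in both replicates, beside 31.6% of protein-coding genes. A peak is not an expression level, so the identity of the cells is not read from it. Of 3 markers of leukocytes, fibroblasts and endothelium, PTPRC and PECAM1 had no peak, and COL1A1 had 1 peak in replicate 2.

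ZNF genes encode mostly C2H2 zinc finger proteins, in which each finger is a short fold held by a pair of cysteines and a pair of histidines around a zinc ion, and tandem fingers read DNA. Many carry an N-terminal KRAB domain, which recruits TRIM28 and through it SETDB1 to silence transposable elements. Their fingers are usually encoded in tandem in a single long terminal exon, joined by a conserved linker that most often reads TGEKP, and many of the genes stand in clusters, above all on chromosome 19, that grew by duplication. The name is given on sequence grounds, so the family also holds proteins with other roles, in ribosome quality control, pre-ribosome maturation or mitosis.

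The linker is a stretch that these genes share closely. Sequence was read for 109 of the 129 overlapping peak pairs described below, and the others were not searched for linkers. In 26 of the 109, the replicate 1 peak held at least 1 complete linker of the form HTGEKPY, HTGEKPF, HTGERPY or HTGERPF. The linker nearest the summit was taken, which gave 25 distinct sites, since both pairs of ZNF777 gave the same one. For 19 of the 26 pairs that linker also lay inside the replicate 2 peak, but not for ZNF266 among those shown. Their coding sequences are shown on the gene strand, as read from hg38, because a 21-nt linker alone often cannot tell one gene from another. Capitals mark the heptamer CTGGAGA where it occurs, which was the case in 7 of the 26.
ZNF77, chr19:2934239-2934259, minus strand: cacaCTGGAGAgaaaccgtat
ZNF266, chr19:9413617-9413637, minus strand: cacaCTGGAGAgaagcccttt
ZNF124, chr1:247157004-247157024, minus strand: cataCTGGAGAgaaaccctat
ZNF460, chr19:57291613-57291633, plus strand: cacactggtgagaagcccttt
ZNF768, chr16:30524685-30524705, minus strand: cacacgggcgagcggccctac
ZNF652, chr17:49298827-49298847, minus strand: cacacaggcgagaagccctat
Exact copies of these 21 nt in the genome, counted on both strands, numbered 17 for ZNF77, 5 for ZNF266, 78 for ZNF124, 3 for ZNF460, 18 for ZNF768 and 2 for ZNF652. Over the 26 linkers the copies ranged from 1 to 78 with a median of 3. ZNF77 and ZNF124 were chosen for display after their values were seen.

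The 30 nt around a summit, the base with the highest pileup in a peak, were mostly unique. These stretches are longer than a linker and come from pairs on and off the fingers, so the copies are not directly comparable. They occurred once in the genome for 103 of 109 pairs whose sequence was read. The strongest pairs by fold enrichment whose sequence is shown here had the following 30 nt at the summit of replicate 1, in a 3′ UTR for ZNF354C and in coding sequence for the others. No motif is marked in these sequences, since GGAC, the core of the m6A consensus, was absent from the 30 nt shown.
ZNF354C, chr5:179082840-179082869, plus strand: ccttggggccctcacagactcgccaaacat
ZNF318, chr6:43348592-43348621, minus strand: aatgctgcgcaagaaacgaagggagaagga
ZNF384, chr12:6678421-6678450, minus strand: ggtaatcacgtccccctcaggctctcttgt
ZNF106, chr15:42442378-42442407, minus strand: tgaaccttctgagcacccagaccaggttcc
In 17 of the 109 pairs the GGAC nearest to the summit, within the 101 nt centered on it, was coding. Pairs that share a replicate 1 peak repeat its summit among the 109, and a summit of ZNF384 entered the 17 more than once. ZNF148, ZNF410, ZNF580 and ZNF77 are shown as examples chosen after the values were seen, with GGAC in capitals. In ZNF580 and ZNF410 the middle of the motif lay 3 nt from the summit, in ZNF148 25 nt and in ZNF77 42 nt.
ZNF148, chr3:125313554-125313583, minus strand: atgcagtcttccaGGACaatggttgtaatg
ZNF410, chr14:73931521-73931550, plus strand: ttaactgaaagacGGACatgagcgtgggtg
ZNF580, chr19:55642840-55642869, plus strand: gcgtgtcgcactcGGACctcaagcccttca
ZNF77, chr19:2934171-2934200, minus strand: ctcctttagagatcacgtgaGGACgcacac

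The share of ZNF genes with a peak was below that of protein-coding genes at large. A peak was present in 26.6% of the 515 genes in replicate 1 and 28.9% in replicate 2, beside 37.3% and 39% of all 20046 protein-coding genes. In both replicates there was a peak on 102 ZNF genes, 19.8% (95% Wilson interval 16.6 to 23.5), beside 31.6% of protein-coding genes. The Wilson intervals here and below cover counting error over genes or peaks only, and no test was made, since the design holds 1 group and genes of a family are not independent. A peak in at least 1 replicate was present on 184 ZNF genes, and on 331 none was called. Of the genes with a peak in at least 1 replicate, 55.4% had one in both, beside 70.7% of protein-coding genes. The peak calls depend on how much of each mRNA the cells held, which was not measured here, so low binding and low mRNA cannot be told apart.

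The 102 genes differed in make-up from the genes without a peak. They had a median of 8.5 fingers, counted as matches of the C2H2 pattern in the canonical protein, against 11 in the 331 genes with no peak. A KRAB pattern was found in 37.3% of them against 69.8%, and 35.3% lay on chromosome 19 against 54.1%. Their median coding length, 1866 nt against 1692 nt, and median transcript length, 4110 nt against 3879 nt, were close.

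Split by protein class, 38 of 305 ZNF genes with a KRAB pattern (12.5%, interval 9.21 to 16.6) and 64 of 210 without one (30.5%, interval 24.6 to 37.01) had a peak in both replicates. The second share is near the 31.6% of all protein-coding genes. On chromosome 19 and on the other chromosomes, the KRAB genes reached 11.4% and 14.7%, and the genes without KRAB 30.8% and 30.4%. All ZNF genes of chromosome 19, 210 of 249 with KRAB, stood at 14.5%, and those elsewhere at 24.8%. The 1227 other protein-coding genes of chromosome 19 stood at 34.2%. By finger number, 33.3% of the 39 genes with under 3 fingers, 25.7% of the 179 with 3 to 9 and 14.5% of the 297 with 10 or more had a peak in both replicates. In KRAB genes 16.8% of the positions in finger codons lay in a 31-nt stretch with more than 1 genome copy, against 6.98% in genes without KRAB, and 2.09% against 0.480% had more than 10 copies. The part of sequence copies in the shares by class was not tested.

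**Figure D1:**
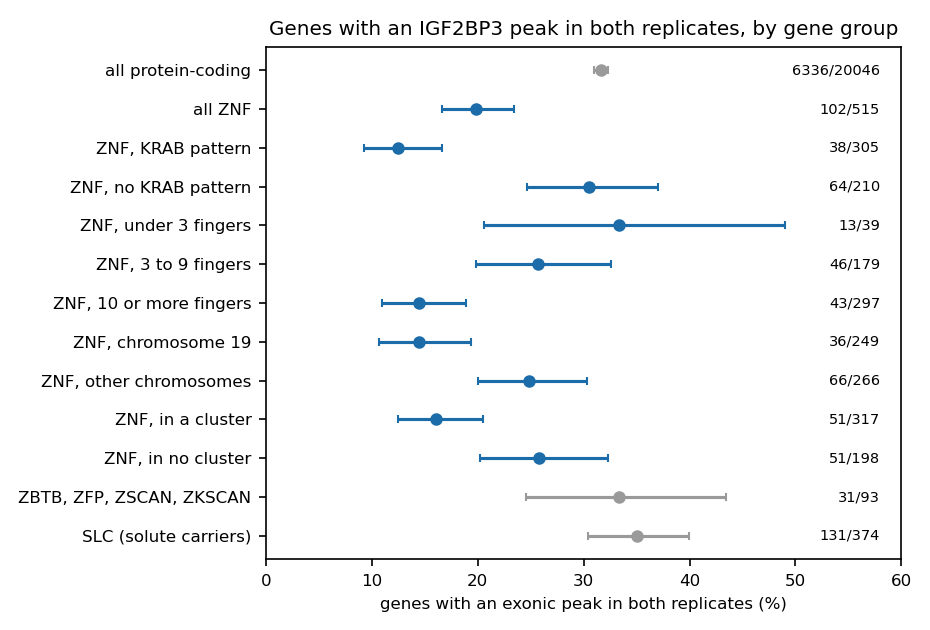
Percentage of genes with an exonic peak in both replicates (x axis) for all protein-coding genes, ZNF genes and their groups, and 2 comparison families. Points are percentages, bars are 95% Wilson intervals for counting error, and the counts stand at the right. KRAB genes (38 of 305) sit lowest, and ZNF genes without KRAB (64 of 210) near all protein-coding genes.

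Transcript length did not order the ZNF genes as it ordered other genes. With protein-coding genes split into 3 equal groups by canonical transcript length, the share with a peak in both replicates was 20.6%, 32.2% and 42.1% from short to long, whereas for ZNF genes it was 19.1%, 18.3% and 21.3%. The related families named ZBTB, ZFP, ZSCAN and ZKSCAN reached 33.3% of 93 genes. Within them ZBTB genes, transcription factors with a BTB dimerization domain, stood at 45.2% of 42, and ZSCAN and ZKSCAN genes at 13.8% of 29. Solute carriers (SLC), a family of similar size with no zinc fingers, stood at 35.0% of 374.

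A cluster was taken as at least 5 ZNF genes with gaps under 500 kb, and 21 such clusters held 317 genes, 235 of them in 10 clusters on chromosome 19. Clustered genes had a peak in both replicates in 16.1% of cases and the 198 others in 25.8%. Most clustered genes had a KRAB pattern and most of the others did not, and the part of KRAB in these shares was not tested. At least 1 gene with a peak in both replicates was present in 18 of the 21 clusters. The exceptions were clusters of 7 genes on chromosome 3 and of 7 genes on chromosome 12, and the pericentromeric cluster at chr19:19668796-24129968. In this last cluster, 34 of 37 genes had a KRAB pattern, 2 genes had a peak in replicate 1 and 4 in replicate 2, and none had one in both. It holds ZNF91 and ZNF93, which are known to repress SVA and LINE-1 elements. ZNF91 had 1 peak, in replicate 2, over fingers 21 to 25 of its 31 fingers, with a fold of 6.05, 7 reads at the summit, and summit sequence present 2 times in the genome. ZNF93 had none.

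In the cluster at chr19:51571283-53580269, 7 of 40 genes had a peak in both replicates (ZNF160, ZNF28, ZNF468, ZNF611, ZNF836, ZNF841 and ZNF888). In the telomeric cluster at chr19:57191500-58481230 it was 4 of 43, namely ZNF324B, ZNF417, ZNF460 and ZNF814. Of these 4, only ZNF460 had unique summit sequences in its overlapping pairs. In both replicates the summit sequence was present 2 times in the genome for ZNF324B and ZNF417, and 3 times for ZNF814. In the cluster before it, the overlapping pair of ZNF611 had 3 and 3 copies, and that of ZNF888 had 2 and 4. The calls on these multi-copy genes are therefore uncertain. The highest shares among clusters of at least 10 genes were found on chromosomes 7 and 19. At chr7:149069641-149867479 it was 4 of 10 (ZNF282, ZNF398, ZNF746 and ZNF777), with 7 KRAB genes, and at chr19:55476617-56671783 it was 6 of 16 (ZNF444, ZNF579, ZNF580, ZNF784, ZNF787 and ZNF865), with 5. On chromosome 16, 4 of the 13 genes at chr16:30378106-31917357 had a peak in both (ZNF629, ZNF689, ZNF764 and ZNF768).

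The medians of peak strength were lower on ZNF exons than over all exonic peaks. The median fold enrichment, the summit pileup over the local background, was 6.13 in replicate 1 and 6.35 in replicate 2 (6.24 ± 0.160, SD, n = 2), beside 6.82 and 7.11 for all peaks on protein-coding exons. The median summit pileup was 20 reads in both replicates, beside 24 and 23. The lowest and highest folds of ZNF peaks were 2.94 and 18.6 in replicate 1, and 2.88 and 18.4 in replicate 2. The median width was 361 bp and 362 bp, beside 340 bp and 349 bp.

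The replicates shared about the same part of the ZNF peaks from either side. In replicate 1, 124 peaks (54.6%, interval 48.1 to 61.0) shared 1 bp or more with the other list, and in replicate 2 it was 126 (51.4%, interval 45.2 to 57.6), beside 61.9% and 61.5% of all peaks on protein-coding exons. Among peaks of under 15 reads at the summit, 39.7% and 38.4% overlapped, beside 41.1% and 39.5% of all such peaks. Among peaks of 15 to 36 reads it was 47.7% and 46.8%, beside 59.95% and 60.5%. Among those of 37 reads and over it was 88.5% of 52 and 84.0% of 50, beside 82.6% and 83.0%. Peaks of under 15 reads made up 29.96% and 35.1% of the ZNF peaks, beside 22.8% and 24.5% of all.

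The overlapping peaks made 129 pairs on 82 genes. The fold was higher in replicate 2 in 65 pairs and in replicate 1 in 64. The log2 ratio of the folds had a median of 0.00 and an SD of 0.41 over pairs, with extremes of -1.13 and 1.03. The distance between the summits of a pair had a median of 64 bp, and 59 pairs had summits within 50 bp. In 114 pairs the summits fell in the same kind of transcript region in both replicates. Only 10 pairs had a fold above 10 in both replicates.

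**Figure D2:**
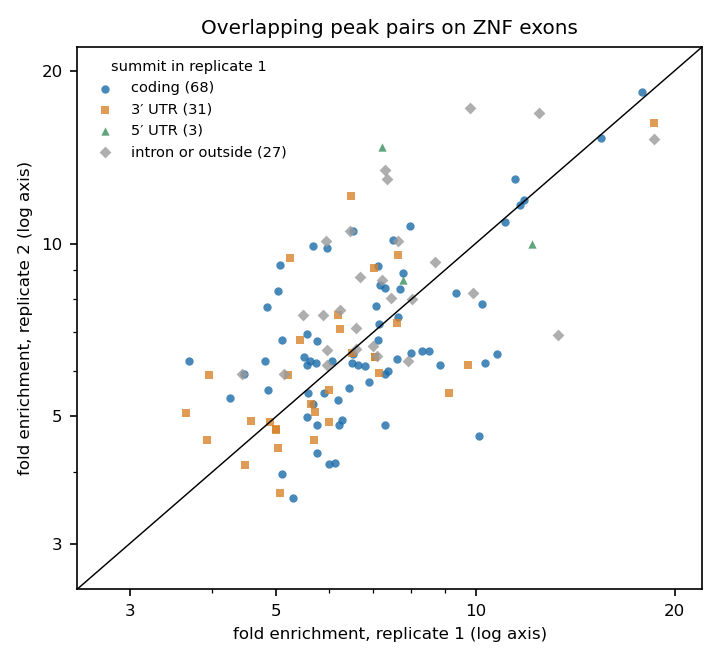
Fold enrichment of the 129 overlapping pairs in replicate 1 (x axis) and replicate 2 (y axis), both on log axes. Each point is a pair, its marker gives the transcript region of the summit in replicate 1, and the line marks equal folds. The pairs lie on both sides of the line, 65 above and 64 below.

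The pairs were ranked by strength, using for each pair the lower of its fold percentiles among all peaks of its list. ZNF704 gave the first pair, with folds of 17.8 and 18.4 over a coding exon, and 2 more among the first 10. ZNF354C, a KRAB zinc finger protein, came second with 18.6 and 16.2 in its 3′ UTR, where the summits lay 2 bp apart and an annotated processed pseudogene overlaps. ZNF318, a nuclear protein required for IgD expression in B cells, was next with 15.5 and 15.3 over a coding exon. ZNF706 followed with 12.5 and 16.9 at its 5′ end.

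Several of these genes had many peaks. ZNF384, a nuclear matrix transcription factor, had 7 peaks in replicate 1 and 8 in replicate 2, and the strongest, over a coding exon, had folds of 11.5 and 12.98 with 64 and 65 reads. ZNF704 had 7 and 7 peaks, ZNF318 6 and 7, and ZNF106, an RNA-binding zinc finger protein, 8 and 5. ZNF652, a transcriptional repressor that works with CBFA2T3, had 6 and 4, and ZNF395, a hypoxia-responsive transcription factor, 4 and 6. Such genes were the minority: 92 of 134 genes had a single peak in replicate 1 and 101 of 148 in replicate 2, and 8 peaks was the most on any gene. These counts give each peak to 1 gene.

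The transcription factor ZNF148 had its strongest pair over the start codon, with folds of 11.1 and 10.9, the summit at the same base in both replicates, and 24 and 16 reads. ZNF207, the spindle assembly factor BuGZ, had folds of 12.2 and 10.0 at its start codon. That peak also touched exons of C17orf75 and of 2 non-coding genes. For ZNF575 (8.67 and 9.29) and ZNF189 (9.91 and 8.21) the summits fell outside the canonical transcript, on or beside exons of ETHE1 and MRPL50. The peaks carry no strand, so for such overlaps the source transcript cannot be told apart. Over all ZNF peaks, 12.3% and 18.4% also touched an exon of another gene, beside 11.1% and 13.5% of all peaks on protein-coding exons, but only 4 and 6 peaks had more exonic bases on another protein-coding gene.

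Among 16 ZNF genes listed for their known roles, 11 had an exonic peak in replicate 1, 10 in replicate 2 and 9 in both. The shares of all ZNF genes were 26.6%, 28.9% and 19.8%, and those of protein-coding genes 37.3%, 39% and 31.6%. The list was chosen by hand, so nothing is read from this difference. ZNF598, the ubiquitin ligase that marks collided ribosomes, had 2 and 4 peaks, with folds up to 5.29 and 5.94. ZNF622, which acts in 60S subunit maturation, had 1 coding peak in each, with folds of 6.51 and 6.18. ZNF593, a small pre-60S factor, was touched in replicate 1 by a peak of fold 8.22 that was assigned to the overlapping antisense gene ZNF593OS, and by none in replicate 2.

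ZNF217, a transcription factor and oncogene of chromosome 20q, had 5 peaks in replicate 1 and 4 in replicate 2. Its folds reached 7.78 and 10.5. ZNF703, a corepressor amplified in breast cancer, had 3 and 3 peaks with folds up to 5.70 and 6.23, and the longest of them in replicate 2 spanned 1677 bp with 145 reads at the summit. ZNF281 had 1 coding peak in each replicate, but the peaks did not overlap. ZNF638, an RNA-binding protein, had 3 and 2 peaks without an overlap.

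ZNF410, whose known target is CHD4, had 1 peak in each replicate, with folds of 9.34 and 8.19. That peak covered the stop codon, reached 36 bp of coding sequence and also touched an exon of FAM161B. ZNF143, a promoter-binding activator, had 1 peak of fold 6.81, in replicate 1, over its last fingers 6 and 7. No peak was called in either replicate on ZNF445, a KRAB protein that protects imprints, ZNF326, a subunit of the DBIRD complex, or ZNF750, an epithelial differentiation factor.

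Of 16 genes of KRAB corepressors, a list that was also chosen by hand, 16 had an exonic peak in replicate 1, 13 in replicate 2 and 13 in both, beside 37.3%, 39% and 31.6% of protein-coding genes. TRIM28, the adaptor that KRAB domains contact, had 1 and 2 peaks with folds up to 4.47 and 5.75. CHD4 had 5 and 6 peaks with folds up to 9.66 and 12.1. SETDB1, CBX3 and UHRF1 had peaks in replicate 1 alone.

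Summits of ZNF peaks were coding more often than those of other exonic peaks. Of the ZNF peaks, 50.7% in replicate 1 and 51.0% in replicate 2 had the summit in coding sequence, beside 34.0% and 33.8% of all peaks on protein-coding exons. The summit was in an intron in 15.9% and 13.1%, beside 29.5% and 26.7%, which can occur because a peak only had to touch an exon. The 3′ UTR held 25.1% and 16.7% of the summits, beside 25.6% and 20.4%, so the replicates differed from each other more than ZNF genes differed from the rest. The 5′ UTR held 3.52% and 8.57%, beside 5.90% and 10.7%. The rest, 4.85% and 10.6%, lay outside the canonical transcript, beside 4.95% and 8.49%.

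**Figure D3:**
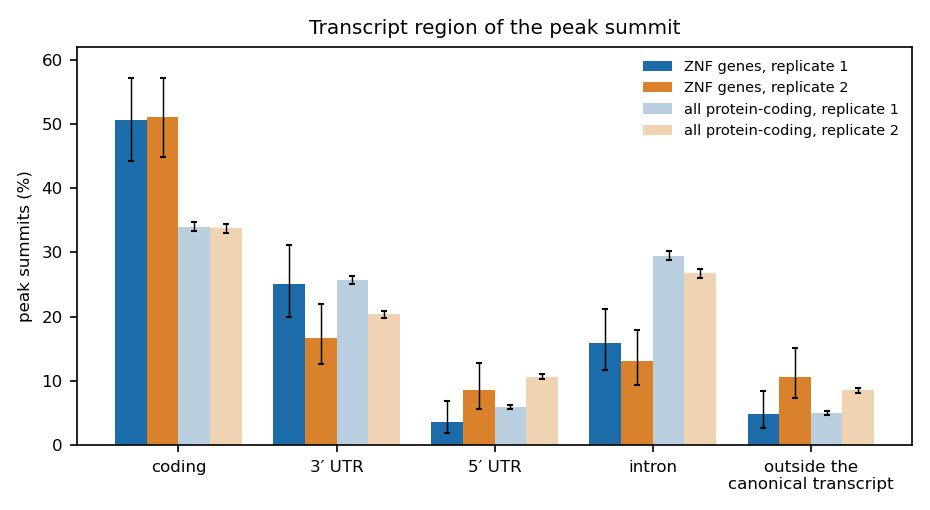
Percentage of peak summits (y axis) in each region of the canonical transcript, for ZNF genes and for all protein-coding genes in both replicates. Bars are percentages and error bars are 95% Wilson intervals for counting error. Coding summits make up 50.7% and 51.0% for ZNF genes, and 34.0% and 33.8% for all.

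The last coding exon, which in 435 of the 500 genes with a C2H2 match is the exon with the most finger codons, took a larger share of these peaks than of all. It was reached by 56.4% of ZNF peaks in replicate 1 and 51.0% in replicate 2, beside 38.8% and 33.8% of all peaks on protein-coding exons. The exon with the most finger codons was reached by 51.5% and 44.9%. Finger codons themselves were covered by 92 peaks (40.5%, interval 34.4 to 47.0) and 98 peaks (40%, interval 34.1 to 46.2), a mean of 40.3% ± 0.374 (SD, n = 2). The summit was on a finger codon in 42 and 52 peaks.

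A peak over the fingers covered a median of 3 fingers in replicate 1 and 4 in replicate 2, and at most 10. All stretches of the array carried peaks. With arrays of at least 5 fingers divided into 3 equal stretches, the peaks over the N-terminal, middle and C-terminal stretch numbered 35, 21 and 24 in replicate 1 and 32, 29 and 28 in replicate 2. The first finger was reached by 40 and 36 peaks and the last by 29 and 34. Of peaks over fingers, 55.4% and 52.0% overlapped the other replicate, against 54.1% and 51.0% of peaks off the fingers. Their median folds were 5.94 and 6.18, against 6.46 and 6.42.

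Per kilobase of exon, the fingers held as many summits as the rest of the coding sequence or more, and the 3′ UTR fewest. Over the 102 genes with a peak in both replicates, finger codons made up 12.5% of canonical exonic bases and carried 0.544 and 0.594 summits per kb. Other coding sequence carried 0.418 and 0.411, the 5′ UTR 0.251 and 0.564, and the 3′ UTR, 49.9% of the bases, 0.190 and 0.145. The 38 KRAB genes among them had 0.582 and 0.517 per kb on fingers and 0.192 and 0.192 on other coding sequence. Placed by the peak's centre in place of its summit, these became 0.420 and 0.485 on fingers and 0.313 and 0.168 on other coding sequence, so the gap in replicate 1 was smaller. In the 64 genes without KRAB the values were 0.505 and 0.673 on fingers and 0.504 and 0.495 on other coding sequence. These genes were taken because they had peaks, so the densities describe where the peaks lay and not how often genes were bound.

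The maps of named genes show these forms. In ZNF768, with 10 fingers and no KRAB pattern, a single peak of 1087 bp and 1092 bp covered all 10 fingers and the stop codon in both replicates, with folds of 7.07 and 7.78. In ZNF460, a KRAB gene with 11 fingers, the peaks covered 9 and 6 fingers with folds of 7.12 and 6.80, and a further pair lay at the 5′ end. ZNF777 had 1 peak over fingers 1 to 7 in replicate 1 and 2 peaks in replicate 2, over fingers 1 to 2 and 4 to 9. In ZNF652 the strongest pair by the ranking above (11.8 and 11.9) covered the start codon, with both summits inside the coding sequence. Another pair covered the last finger and the stop codon, with 111 and 95 reads. ZNF217 had peaks over its first fingers, its last finger and its 3′ UTR.

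**Figure D4:**
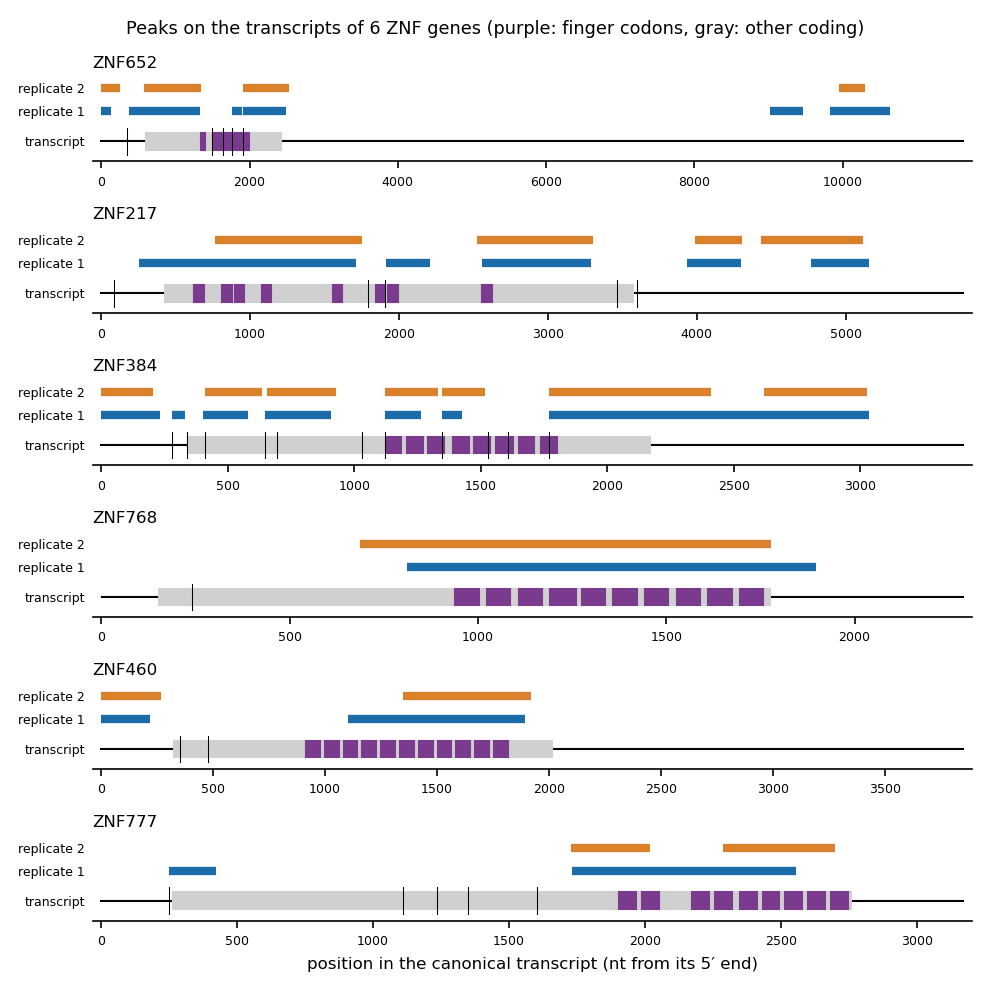
Peaks on the canonical transcripts of 6 named ZNF genes, with position in nt from the 5′ end on each x axis and a separate scale for each gene. Purple boxes are finger codons, gray boxes other coding sequence, the black line the whole transcript and vertical ticks exon junctions, and colored bars are the exonic part of each peak in replicate 1 and replicate 2. In ZNF768 the peaks of both replicates span all 10 fingers, and in ZNF652 both replicates have peaks at the start and at the end of the coding sequence.

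The share of peaks over the stop codon was lower for ZNF genes than over all. It was covered by 25 peaks in replicate 1 (11.0%, interval 7.57 to 15.8) and 16 in replicate 2 (6.53%, interval 4.06 to 10.3), beside 14.9% and 13.4% of all peaks on protein-coding exons. Among summits on canonical exons, 13.3% and 11.2% lay within 200 nt of the stop codon, beside 18.97% and 17.2%. Summits lay upstream of it in 68.3% and 78.1% of cases, beside 60.8% and 68.6%, with a median position of -532.5 nt and -629 nt relative to it. In the 300 nt just downstream the ZNF share was 5% and 3.74%, beside 10.4% and 9.47%.

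**Figure D5:**
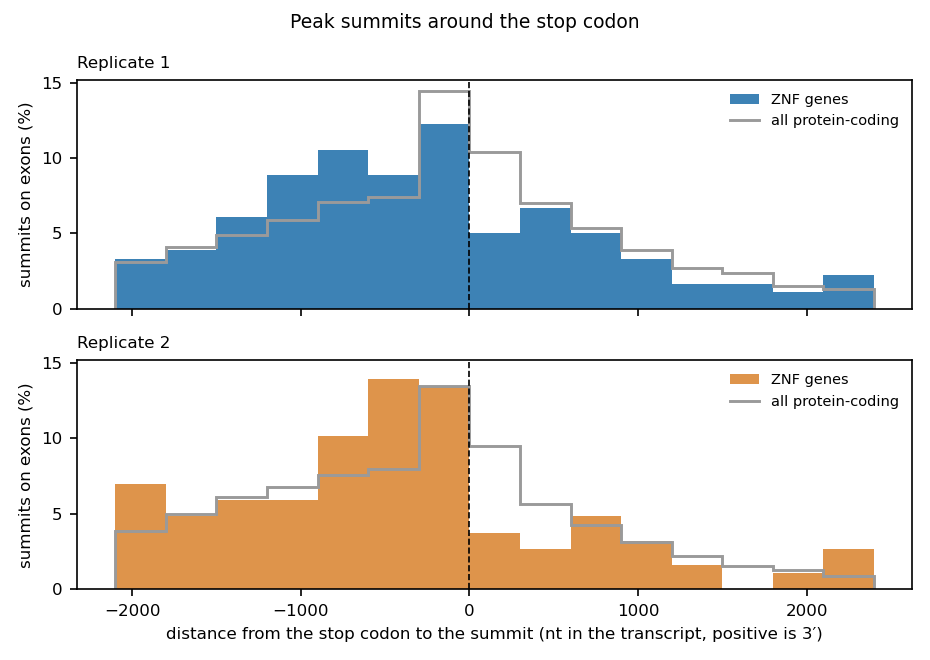
Percentage of exonic summits (y axis) by distance to the stop codon in nt along the canonical transcript (x axis, positive is 3′), in bins of 300 nt, for replicate 1 (top) and replicate 2 (bottom). Filled bars are ZNF genes and gray lines all protein-coding genes. In the bin just 3′ of the stop codon the ZNF bars stand at 5% and 3.74% and the gray lines at 10.4% and 9.47%.

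Peaks inside the 3′ UTR that touched no coding base numbered 50 in replicate 1 (22.03%) and 37 in replicate 2 (15.1%), beside 19.3% and 14.7% of all. They included both peaks of ZNF354C and a pair in ZNF607, a KRAB gene of chromosome 19, with folds of 6.23 and 7.11. They also included pairs in ZNF395, ZNF703, ZNF704 and ZNF217. The start codon was covered by 17 and 21 ZNF peaks (7.49% and 8.57%), beside 9.60% and 14.6%.

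The peaks of KRAB and of other ZNF genes were also set side by side. On the 63 and 71 peaks of KRAB genes, finger codons were covered in 58.7% and 43.7%, and on the 164 and 174 peaks of the others in 33.5% and 38.5%. Fingers are also a larger part of KRAB transcripts. Among genes with a peak in both replicates, they made up 18.6% of canonical exonic bases with KRAB and 9.32% without. The KRAB peaks had a median of 15 and 14 reads at the summit against 22.5 and 23. Their summit sequence of 31 nt had more than 1 genome copy in 17.5% and 16.9% of peaks, against 2.44% and 1.15%. Over all ZNF peaks it was 6.61% and 5.71%, beside 4.402% and 4.08% of all peaks on protein-coding exons. Reads of near-identical copies can be placed on either gene, so single KRAB genes with such summits, ZNF611 with 3 copies among them, are uncertain.

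Short motifs were counted in the 101 nt centered on each summit, on the gene strand only. GGAC was present in 31.3% and 31.4% of ZNF windows, beside 29.4% and 32.5% of the windows of all peaks on protein-coding exons, and TGGAC, which contains it, in 10.1% and 6.94%, beside 10.1% and 10.1%. CACA, a form of the CA-rich elements that IGF2BP proteins are known to bind, was present in 50.2% and 46.5%, beside 36.3% and 33.4%. The high values came from the finger-coding part: CACA was in 83.3% of 42 and 82.7% of 52 windows whose summit was on a finger codon, but in 38.5% and 32.7% of windows of peaks off the fingers. Of all 101-nt windows centered on finger codons of ZNF genes, with or without a peak, 70.9% held it. Those windows ran along the spliced coding sequence and lay wholly inside it. Summit windows ran along the genome and could include intron or UTR, so the shares are not fully alike, here and below. GGAC was in 15.1% of all such finger windows, and in 33.3% and 15.4% of windows with the summit on a finger codon.

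The linker heptamer CTGGAGA was present in 5.73% and 6.12% of ZNF windows, beside 1.74% and 1.74% of all. With the summit on a finger codon it was 16.7% and 19.2%, whereas 33.0% of all windows centered on finger codons held it, 25.2% in genes with a peak in both replicates and 36.5% in genes with no peak. A match of these letters describes the window and is no evidence of a binding site.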

How the data were processed

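The peaks are those of IGF2BP3 LACE-seq in OE-19 cells, with replicates 1 and 2 of a single group per the labels. Nothing in the labels says whether they were separate cultures. By the methods of the study, the authors removed pre-rRNA reads, aligned the rest to hg38 with Bowtie, an unspliced aligner, and called peaks with Piranha. The submitters' processing notes name fastp, HISAT2, MACS2 and hg38 instead, and the deposited lists, 1 per replicate and without strand, have the narrowPeak layout of MACS2. Multi-mapping reads were allowed by the stated Bowtie settings, and no peak carries a strand.

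The deposited fold enrichment is a ratio of the summit pileup to local background. The deposited p-values and q-values are on the −log10 scale. The deposited score column repeats the q-value and was not used here. Library depth is unknown. The summit pileup in reads was recovered for every peak from the deposited fold and p-value under a Poisson model, and is given as the depth behind each peak.

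Peaks were placed on GENCODE 44 exons with an overlap of at least 1 bp. A peak on several ZNF genes went to the gene with most exonic bases. Transcript regions follow the canonical transcript. Fingers were matches of C-X2/4-C-X12-H-X3-5-H, and KRAB was called by residue patterns. Peaks not on reference contigs (46 and 36) met no exon. Values were computed with Python 3.11.15, numpy 2.4.6, scipy 1.17.1 and Biopython 1.88. The functions were tested on simulated data with known answers. Percentages have Wilson 95% intervals where given, and no hypothesis was tested.

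Named genes were the 12 strongest overlapping pairs by the lower fold percentile, the 6 genes with most peaks, the strongest pair of each cluster with at least 3 paired genes, and 16 genes with known roles. Members and lists were chosen with earlier results of these data known. Alternatives covered exon definition, q-value, sequence copies, neighbouring genes, finger number, overlap, position and each replicate alone.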

Additional observations from a re-analysis of the deposited data

How the results depend on the processing

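Of 63 values recomputed for 7 results under 12 settings, 51 stayed within the spread between replicates or, for counts, within 1.5 times the value reported, and 12 moved. The 63 include values of each replicate alone. For shares and medians of 2 replicates these fall within the spread by construction, so they say nothing of stability. For genes they count a peak in that replicate, set against 102 with a peak in both. ZNF genes with a peak in both replicates, 102, became 71 with a reciprocal overlap of 50% and 42 with summits within 50 bp. The mean share of peaks overlapping the other replicate, 53.0%, became 44.1% and 25.5% under these settings, and 55.5% with a −log10 q of at least 5. The mean share over finger codons, 40.3%, was 43.9% with the summit on an exon, 42.4% on canonical exons only, 39.0% with unique summit sequence, 44.1% without peaks on exons of another gene, 48.0% for genes with at least 3 fingers and 33.4% within 100 nt of the summit. The mean share covering the stop codon, 8.77%, was 3.02% within 100 nt of the summit. The mean of the median folds, 6.24, was 6.07 with the summit on an exon. The cause of these shifts was not tested beyond the settings' own construction.

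With a single replicate taken in turn, the results ranged from 227 to 245 for ZNF peaks, 137 to 149 for ZNF genes with a peak (102 in both), 51.4% to 54.6% for overlap, 6.13 to 6.35 for the median fold, 40% to 40.5% for finger codons, 6.53% to 11.0% for the stop codon and 16.7% to 25.1% for summits in the 3′ UTR. No paired analysis was possible because the study has 1 group. The median ZNF peak had 20 reads at the summit, and an absent call does not show absent binding.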

Other observations

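Peaks also lay in ZNF gene bodies off every exon of the gene, 39 in replicate 1 and 28 in replicate 2. Of these, 24 and 19 touched an exon of another gene. A peak of the other replicate was overlapped by 16 and 14, beside 61.9% and 61.5% of all peaks on protein-coding exons. The median folds of these peaks off exons were 6.09 and 6.73.

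Another 176 annotated genes have a symbol of the ZNF form but are not protein-coding (pseudogenes, antisense and divergent transcripts). Their exons carried 18 peaks in replicate 1 and 16 in replicate 2. Of these, 11 in each overlapped the other replicate, beside 61.9% and 61.5% of all peaks on protein-coding exons. An exon of another gene was touched by 4 and 5. Among the genes with peaks in both replicates were ZNF252P, ZNF286B, ZNF37BP and the antisense transcripts ZNF337-AS1, ZNF561-AS1, ZNF460-AS1 and ZNF652-AS1. The last pair overlap the 5′ ends of ZNF460 and ZNF652, where the peaks described above carry no strand and their source cannot be told apart. The same holds for ZNF561-AS1, where a replicate 1 peak on its exon was also counted for ZNF562. The genes that are not protein-coding were named here after their values were seen.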
